A study of Homo sapiens with 6 samples.

Results

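The DNA replication and nucleotide supply genes are 40 genes grouped by function: the 6 subunits of the MCM2-7 helicase, 13 genes of origin licensing and initiation, 8 DNA polymerase and primase genes, 9 genes of the sliding clamp, its loader and fork maturation, and 4 genes that supply deoxynucleotides. Members were found by their symbol in the deposited expression table, and 38 of the 40 were there among 17468 genes. ORC1 and ORC6, subunits of the origin recognition complex, were not analysed here. All 38 had a mean of at least 1 FPKM (fragments scaled to transcript length and library size) over the 6 libraries, the filter that left 11129 genes for testing.

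The libraries came from A375 and Colo800, established human melanoma cell lines, and ask what changes when the ETS-family transcription factor ETV1 is knocked down. In each line there was 1 library with a scrambled short hairpin RNA and 1 each with ETV1-sh1 and ETV1-sh2, hairpins against ETV1 carried by virus, with RNA taken 4 days after infection per the series' design text. Infections were in duplicate by that text; whether the table's columns pool them was not given in the sources used here. By contrast, the labels' treatment field also gives the scrambled libraries as 1 uM vemurafinib (the BRAF inhibitor vemurafenib), the ETV1-sh1 libraries as DMSO and the ETV1-sh2 libraries as 5 nM trametinib (a MEK inhibitor), and their protocol speaks of 48 hours of siRNA followed by 8 hours of drug. No drug appears in the design text. Hairpin and labelled drug go together in all 6 libraries and cannot be told apart, so each comparison below is one of libraries by their hairpin label.

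Before a cell copies its DNA, the factors CDC6 and CDT1 help load the MCM2-7 ring onto origins, and CDC45 and the GINS complex turn it into the active helicase. DNA polymerase alpha with primase starts each strand, the clamp PCNA, placed by replication factor C, holds the main polymerases on the template, and FEN1 and LIG1 join the lagging strand pieces. Ribonucleotide reductase, thymidylate synthase and thymidine kinase supply the building blocks. Many of these genes are transcribed towards S phase under E2F transcription factors, which makes the set a common marker of proliferation in tumour cells. In bulk libraries such as these, fewer cells in a state and less RNA per cell cannot be told apart.

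The promoters of 32 of the 38 genes were found among the RefSeq promoter sequences (GRCh38.p14, from 250 bases before to 50 bases after the annotated start); the expression values themselves were made on another build, hg19. Both strands were searched for the E2F words TTTCCCGC, TTTCGCGC, TTTGCCGC and TTTGGCGC, for the NF-Y word CCAAT and for the ETS word CCGGAAGT. An E2F word was in a promoter of 19 of the 32 genes (59.4%), against 3.31% of all 35116 promoters in that table and 6.65% of the 8711 tested genes with an entry. CCAAT was in 18 of the 32 (56.2%), against 34.6% of all promoters and 43.9% of tested genes with an entry. The ETS word was in 3 of 32 (9.38%), in GINS3, POLA1 and RFC4, against 4.14% and 9.98%. The windows below hold the E2F word of genes whose levels are described next, from the largest ETV1-sh2 difference (TYMS, UHRF1) to the smallest (GINS3). Capitals mark the E2F words, read 5′ to 3′ along the gene, and no window runs more than 30 bases past the start.
TYMS, chr18:657584-657651, plus strand: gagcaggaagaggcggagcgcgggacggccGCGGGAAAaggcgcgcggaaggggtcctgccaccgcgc
UHRF1, first of its entries with a word, chr19:4909457-4909524, plus strand: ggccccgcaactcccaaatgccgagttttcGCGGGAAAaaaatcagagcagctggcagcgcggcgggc
DTL, chr1:212035710-212035777, plus strand: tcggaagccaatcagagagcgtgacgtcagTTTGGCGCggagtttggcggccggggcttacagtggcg
MCM2, chr3:127598383-127598440, plus strand: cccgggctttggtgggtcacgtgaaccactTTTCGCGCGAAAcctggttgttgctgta
CDC6, chr17:40287856-40287908, plus strand: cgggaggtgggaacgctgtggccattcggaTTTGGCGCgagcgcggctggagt
PCNA, chr20:5126644-5126711, minus strand: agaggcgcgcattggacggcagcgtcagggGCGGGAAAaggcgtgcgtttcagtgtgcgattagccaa
MCM6, chr2:135876558-135876625, minus strand: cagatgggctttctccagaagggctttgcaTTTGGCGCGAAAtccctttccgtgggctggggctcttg
GINS3, chr16:58392436-58392500, plus strand: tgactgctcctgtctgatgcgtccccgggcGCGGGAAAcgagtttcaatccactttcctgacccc

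The MCM2 and MCM6 windows each hold 2 overlapping words, 1 per strand, and the whole MCM6 promoter holds 4. Counting the first transcribed base as 1, the words begin at position -39 in TYMS, -14 in UHRF1, -8 in DTL, 3 in MCM2, 8 in CDC6, -59 in PCNA, -152 in MCM6 and -5 in GINS3. No E2F word was in the promoters of RRM2, MCM10, CDC45 or TK1, 4 genes with large ETV1-sh2 differences. The RRM2 promoter instead holds 3 CCAAT words in near-identical repeats, shown in capitals in the following window.
RRM2, chr2:10122596-10122697, plus strand: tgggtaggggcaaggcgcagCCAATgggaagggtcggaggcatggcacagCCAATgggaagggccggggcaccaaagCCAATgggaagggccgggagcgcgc

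A word match is a description of letters, not of a bound factor.

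The level of ETV1 itself in A375 was 82.8 FPKM under the scrambled hairpin, 34.6 under ETV1-sh1 and 3.46 under ETV1-sh2. In Colo800 those 3 levels were 180.3, 54.6 and 9.80 FPKM. The FPKM of a library summed to between 589256 and 710498 and 10418 to 11013 genes reached 1 FPKM. Absolute depth could not be read from the files. By the commonest ratio of low values, A375 ETV1-sh2 was the deepest library at 2.1 times the A375 scrambled one and Colo800 ETV1-sh2 the shallowest at 0.768 times, an estimate on which only 6.59% to 8.71% of the low genes compared agreed. Of the melanocyte lineage markers, SOX10 and S100B were expressed in every library, while MLANA was at or under 1.85 FPKM and TYR and DCT were under 0.08 FPKM in A375. All 5 of these markers that passed the filter had negative ETV1-sh2 differences, and their list summed to 687 and 472 FPKM under the scrambled hairpin and ETV1-sh2 in A375 and to 1295 and 844 in Colo800. S100B fell with ETV1-sh2 (-1.06, adjusted p = 0.0194) and ETV1-sh1 (-1.70, adjusted p = 0.0197), and MITF, at 116 and 38.4 FPKM in Colo800 and 12.6 and 10.5 in A375 under scrambled and ETV1-sh2, did not pass (-0.91, adjusted p = 0.130). Of 6 fibroblast markers 3 passed the filter, and these rose with ETV1-sh2, COL1A1 by 1.88, PDGFRB by 1.25 and LUM by 0.92 on the log2 scale. The summed level of the 6 under the scrambled hairpin and ETV1-sh2 was 13.1 and 34.7 FPKM in A375 and 9.78 and 29.7 FPKM in Colo800, with COL3A1 at or under 0.106 FPKM in every library. Of the leukocyte markers, PTPRC was at or under 0.121 FPKM, while CD68, which non-leukocyte cells also express, ran from 76.6 to 305.6 FPKM with its highest level in A375 ETV1-sh2. The keratinocyte markers summed to 5.43 to 21.6 and the endothelial markers summed to 0.226 to 0.983 FPKM. Their part in the results below was not tested.

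With ETV1-sh2, the hairpin that left the least ETV1, replication genes were lower from the helicase to the nucleotide enzymes. Of the 38 genes 28 fell and none rose, against 9% of all tested genes that fell and 7.73% that rose (limma on log2(FPKM + 1), the line as a block, adjusted p under 0.05). The fitted log2 difference was negative for 37 of 38 and for 5185 of the 11129 tested genes, with a median of -1.14 against 0.05 over all tested genes. The largest falls were in thymidylate synthase, ribonucleotide reductase subunit RRM2, MCM10 and UHRF1, and the smallest differences in the single-strand binding subunit RPA2 and in GINS1 and GINS3. By role, 5 of 6 MCM2-7 genes fell, 7 of 11 licensing and initiation genes, 5 of 8 polymerase and primase genes, 7 of 9 clamp and fork genes and 4 of 4 nucleotide supply genes. Summed over the 38 genes, the level in A375 was 1170 FPKM under scrambled, 781 under ETV1-sh1 and 439 under ETV1-sh2 (0.185%, 0.129% and 0.0745% of each library's total), and 2523, 1863 and 866 in Colo800 (0.358%, 0.262% and 0.134%). The p-values rest on how far the hairpin differences disagree between A375 and Colo800, with 2 residual degrees of freedom. In limma the spread of each gene is also drawn towards that of all genes. Each line and hairpin has 1 library, so no spread between replicate libraries is measured. Fold changes of low genes are understated on this scale. The number of falls was 0 with no filter on low values (0% of all genes). It was 4 without the A375 scrambled library (MCM2, MCM10, UHRF1 and TYMS; 0.575% of all tested genes), 11 without the Colo800 scrambled library (2.01%) and 18 without the Colo800 ETV1-sh1 library (4.64%).

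**Figure D1:**
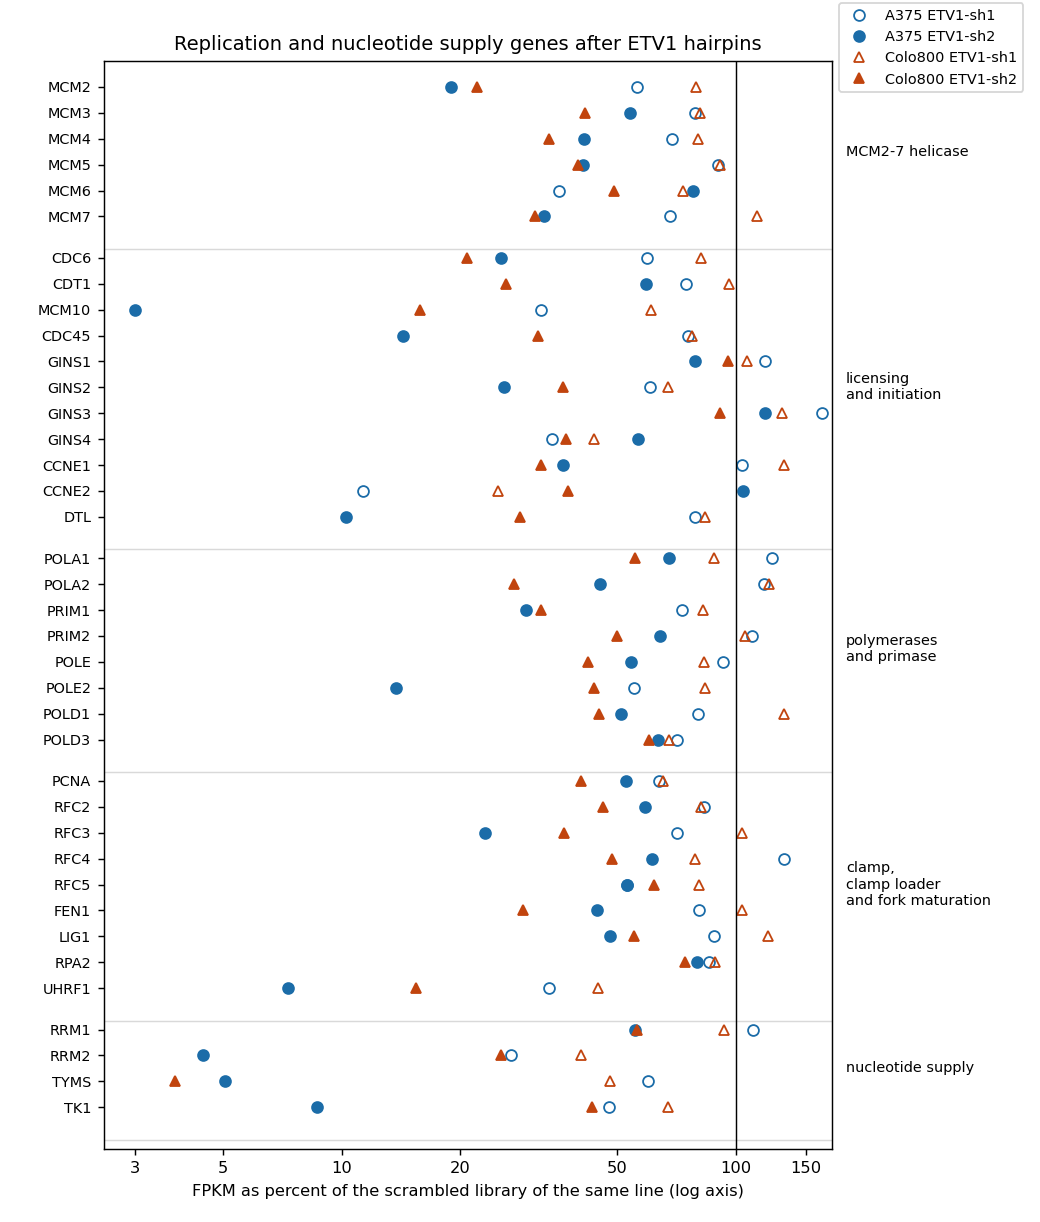
FPKM of each gene in the hairpin libraries as percent of the scrambled library of its own line, on a log axis, grouped by role; blue circles are A375, orange triangles Colo800, open symbols ETV1-sh1 and filled symbols ETV1-sh2, 1 library per symbol. With ETV1-sh2 36 of 38 genes lie left of 100% in both lines, where 34.7% of all tested genes were lower in both, and the lowest symbols belong to MCM10, TYMS, RRM2 and UHRF1.

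Among the nucleotide supply genes, TYMS (thymidylate synthase, ENSG00000176890), which makes the thymidine nucleotide from its uridine form, had the largest fitted fall of all 38. Under the scrambled, ETV1-sh1 and ETV1-sh2 hairpins, the order kept in all value triples below, TYMS was at 46.8, 27.9 and 2.36 FPKM in A375 and at 93.6, 44.8 and 3.53 in Colo800. Both ETV1-sh2 libraries were far below the other 4, and the ETV1-sh1 libraries lay under the scrambled one of their own line. In the fit TYMS fell by 4.11 on the log2 scale (SE 0.198, adjusted p = 0.00299). RRM2, the regulated small subunit of ribonucleotide reductase, was at 137, 37.0 and 6.14 FPKM in A375 and at 544, 220.3 and 138 in Colo800. The Colo800 ETV1-sh2 level was about that of A375 scrambled, so the groups overlap across lines, and within each line the order was scrambled, ETV1-sh1, ETV1-sh2. RRM2 fell by 3.13 (SE 0.50, adjusted p = 0.0165). Its partner RRM1, the large catalytic subunit, was at 17.4, 19.2 and 9.64 FPKM in A375 and at 34.8, 32.5 and 19.6 in Colo800, and fell by 0.79 (adjusted p = 0.0301). The ratio of RRM2 to RRM1 was accordingly 7.9, 1.93 and 0.636 in A375 and 15.6, 6.78 and 7.04 in Colo800. In Colo800 the ratio was therefore about the same with both ETV1 hairpins, whereas in A375 it was lower with ETV1-sh2. TK1, the cytosolic thymidine kinase of the salvage route, was at 12.6, 6.02 and 1.1 FPKM in A375 and at 55, 37.0 and 23.7 in Colo800, and fell by 1.94 (adjusted p = 0.0211). Every Colo800 library was above every A375 library.

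**Figure D2:**
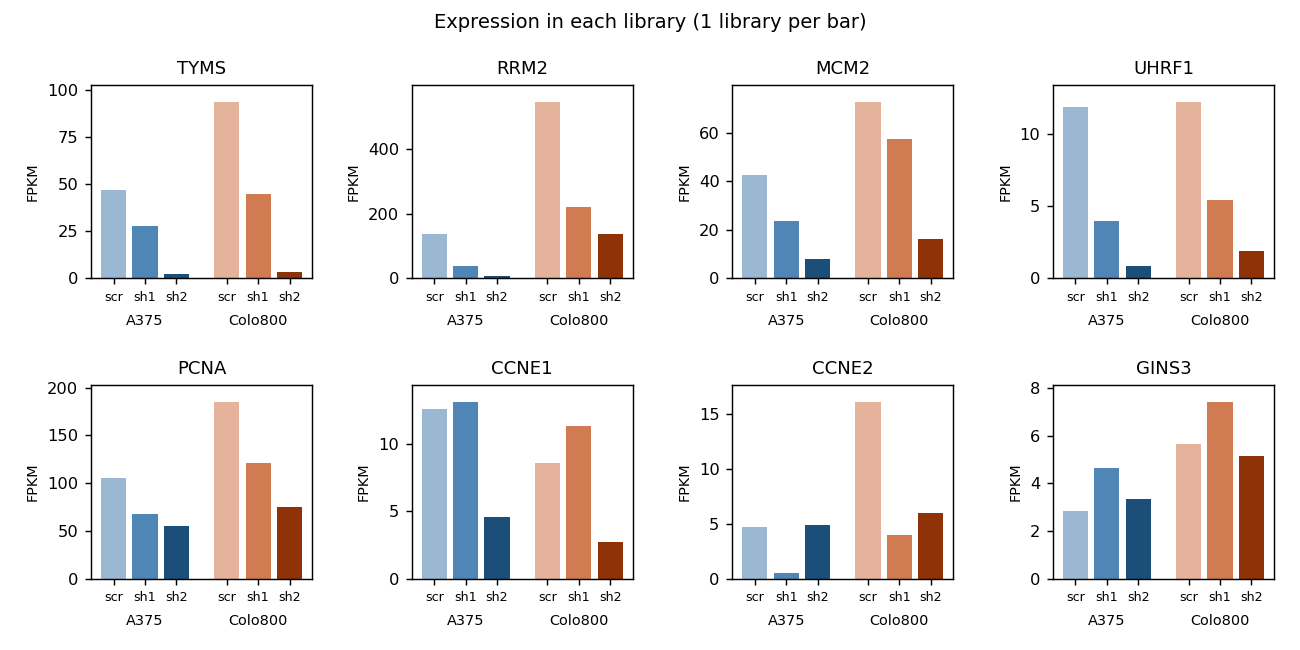
FPKM of 8 genes in each of the 6 libraries, 1 bar per library, A375 in blue and Colo800 in orange, with the scrambled (scr), ETV1-sh1 (sh1) and ETV1-sh2 (sh2) hairpins from left to right; every axis starts at 0. TYMS, RRM2, MCM2, UHRF1 and PCNA step down from scrambled to ETV1-sh2 in both lines, CCNE1 and GINS3 are higher with ETV1-sh1 than with scrambled, and CCNE2 is lowest with ETV1-sh1.

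Among the MCM2-7 helicase subunits the fall was unequal. MCM2 (ENSG00000073111), a subunit that also binds histones, was at 42.4, 23.8 and 8.02 FPKM in A375 and at 72.7, 57.6 and 16.0 in Colo800. Both ETV1-sh2 libraries were below every other library, and MCM2 fell by 2.19 (SE 0.186, adjusted p = 0.00766). MCM7, a core helicase subunit, was at 131, 89.1 and 42.8 FPKM in A375 and at 252, 284 and 78.1 in Colo800. The ETV1-sh1 level was below scrambled in A375 and above it in Colo800, and with ETV1-sh2 MCM7 fell by 1.64 (SE 0.230, adjusted p = 0.0130). MCM4, another core subunit and the most abundant of the 6 in every library but Colo800 ETV1-sh1, was at 253, 174 and 104 FPKM in A375 and at 312, 249.9 and 104.6 in Colo800. The 2 lines thus reached nearly the same MCM4 level with ETV1-sh2, and MCM4 fell by 1.42 (SE 0.179, adjusted p = 0.0106). MCM5, which forms with MCM2 the gate through which the ring opens, was at 24.2, 21.8 and 9.94 FPKM in A375 and at 95.8, 87 and 38.0 in Colo800. Its ETV1-sh1 levels stayed near scrambled, and it fell by 1.26 with ETV1-sh2 (SE 0.159, adjusted p = 0.0106). MCM3, at 33.7, 26.5 and 18.1 FPKM in A375 and at 82.3, 66.7 and 34.1 in Colo800, fell by 1.05 (adjusted p = 0.0191).

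MCM6, whose promoter window with 2 overlapping E2F words is printed above, was the helicase subunit that did not pass. It was at 10.7, 3.79 and 8.27 FPKM in A375 and at 36.6, 26.8 and 18.0 in Colo800 (log2 difference with ETV1-sh2 -0.66, adjusted p = 0.222). The lowest library was ETV1-sh1 in A375 and ETV1-sh2 in Colo800. The highest of the 6 subunits stood above the lowest by 23.8, 46 and 13 times in A375 and by 8.53, 10.6 and 6.54 times in Colo800. The lowest subunit was MCM6 with the scrambled hairpin and ETV1-sh1 and MCM2 with ETV1-sh2, in both lines.

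Of the licensing and initiation genes, MCM10, DTL, CDC6 and CDC45 fell most. MCM10 (ENSG00000065328), which helps the helicase start moving, was at 9.54, 3.05 and 0.286 FPKM in A375 and at 24.4, 14.8 and 3.87 in Colo800. In A375 3% of the scrambled level was left with ETV1-sh2, and MCM10 fell by 2.71 (SE 0.244, adjusted p = 0.00806). DTL, the substrate receptor of the ubiquitin ligase that clears CDT1 in S phase, was at 23.3, 18.4 and 2.4 FPKM in A375 and at 48.0, 39.96 and 13.6 in Colo800. Its levels with ETV1-sh1 were near scrambled and those with ETV1-sh2 were lower than all others. In the fit DTL fell by 2.29 (SE 0.294, adjusted p = 0.0111). CDC6, the loading factor at origins, was at 20.1, 11.9 and 5.09 FPKM in A375 and at 62.8, 51.1 and 13.1 in Colo800, and fell by 1.99 (SE 0.229, adjusted p = 0.00926). CDC45, a part of the active helicase, was at 7.52, 5.69 and 1.08 FPKM in A375 and at 64.9, 50.3 and 20.4 in Colo800, and fell by 1.83 (SE 0.196, adjusted p = 0.00830). CDC45 was higher in every Colo800 library than in any A375 library.

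Of the 4 GINS subunits, which work as 1 complex, 2 fell with ETV1-sh2, where 9% of all tested genes fell. GINS2, at 3.84, 2.33 and 0.99 FPKM in A375 and 7.08, 4.76 and 2.57 in Colo800, fell by 1.23 (adjusted p = 0.0184). GINS4 fell by 0.96 (adjusted p = 0.0472) and was at 4.46, 1.52 and 2.52 FPKM in A375 and 14.9, 6.54 and 5.55 in Colo800, so that in A375 its lowest library was ETV1-sh1. The GINS4 call was lost with a pseudocount of 0.1 or with a filter at a mean FPKM of at least 5. GINS1 was at 2.57, 3.05 and 2.02 FPKM in A375 and at 8.28, 8.83 and 7.88 in Colo800, slightly above scrambled with ETV1-sh1 and below it with ETV1-sh2 in both lines (log2 difference with ETV1-sh2 -0.15, SE 0.203, adjusted p = 0.620). GINS3 was at 2.83, 4.66 and 3.35 FPKM in A375 and at 5.67, 7.40 and 5.17 in Colo800 (log2 difference 0.04, SE 0.205, adjusted p = 0.915), the 1 positive fitted difference of the 38. Its highest library was ETV1-sh1 in both lines, and its promoter holds both an E2F and an ETS word. CDT1, which brings the MCM ring to origins, was at 7.01, 5.22 and 4.14 FPKM in A375 and at 15.4, 14.7 and 4.03 in Colo800 and did not pass (log2 difference -1.17, adjusted p = 0.0626).

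CCNE1 and CCNE2 encode the E-type cyclins, partners of CDK2 at the start of S phase. CCNE1 was at 12.6, 13.1 and 4.6 FPKM in A375 and at 8.55, 11.3 and 2.74 in Colo800. It was above scrambled with ETV1-sh1 and below it with ETV1-sh2 in both lines, and fell with ETV1-sh2 by 1.32 (SE 0.200, adjusted p = 0.0151). CCNE2 was at 4.73, 0.537 and 4.91 FPKM in A375 and at 16.0, 3.99 and 6.002 in Colo800. It was lowest with ETV1-sh1 in both lines and was the 1 gene of the 38 with ETV1-sh1 below ETV1-sh2 in both, as were 39.1% of all tested genes, and its ETV1-sh2 level was above scrambled in A375 and below it in Colo800 (log2 difference with ETV1-sh2 -0.62, SE 0.376, adjusted p = 0.281). Exons of CCNE2 overlap those of INTS8 on the opposite strand in GENCODE 29, and strand use in counting was not given in the sources used here. INTS8 was at 64.4, 38.3 and 82.2 FPKM in A375 and at 38.8, 31.4 and 49.8 in Colo800, lowest with ETV1-sh1 and highest with ETV1-sh2. Its part in the CCNE2 values was not tested. TYMS has such a neighbour in ENOSF1, which stayed between 3.21 and 3.69 FPKM in A375 and between 3.75 and 5.78 in Colo800. In all, 12 of the 38 genes have exons that overlap exons of another protein-coding gene. Some neighbours lie on the same strand, NACA for PRIM1 and FADS2 for FEN1, and for POLA2, POLD1 and RRM2 genes without values here. NACA was at 407, 468 and 336 FPKM in A375 and at 267, 279 and 221 in Colo800. FADS2 was at 10.97, 15.95 and 6.03 FPKM in A375 and at 11.43, 14.49 and 8.11 in Colo800. Their part in the PRIM1 and FEN1 values was not tested.

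Polymerase and primase genes were lower with ETV1-sh2 in both lines in all 8 cases, as were 34.7% of all tested genes. Of the 8, 5 fell, where 9% of all tested genes fell. PRIM1, the catalytic primase subunit, was at 5.64, 4.10 and 1.66 FPKM in A375 and at 11.1, 9.17 and 3.56 in Colo800, and fell by 1.36 (SE 0.198, adjusted p = 0.0141). The ETV1-sh2 libraries were again the 2 lowest. Its partner PRIM2 was at 4.02, 4.41 and 2.58 FPKM in A375 and at 9.58, 10.1 and 4.79 in Colo800, above scrambled with ETV1-sh1 in both lines, and did not pass with ETV1-sh2 (log2 difference -0.68, SE 0.209, adjusted p = 0.0729). POLA2, the regulatory subunit of polymerase alpha, was at 12.6, 14.8 and 5.68 FPKM in A375 and at 14.1, 17.1 and 3.85 in Colo800. It too was above scrambled with ETV1-sh1 in both lines, and it fell with ETV1-sh2 by 1.33 (SE 0.229, adjusted p = 0.0191). The catalytic subunit POLA1 was at 4.28, 5.26 and 2.90 FPKM in A375 and 6.08, 5.33 and 3.37 in Colo800 and did not pass (adjusted p = 0.114). POLE and POLE2, subunits of the leading strand polymerase, fell by 0.94 (adjusted p = 0.0270) and 1.01 (adjusted p = 0.0325). POLE was at 8.80, 8.17 and 4.78 FPKM in A375 and at 15.1, 12.5 and 6.36 in Colo800. POLE2 was low in A375 throughout, at 1.52, 0.842 and 0.21 FPKM, and at 5.87, 4.91 and 2.56 in Colo800. POLD1, the catalytic subunit of the lagging strand polymerase, fell by 0.94 with an adjusted p of 0.0491 at the edge of the threshold, while its accessory subunit POLD3 did not pass (log2 difference -0.58, adjusted p = 0.0876). POLD1 was at 12.2, 9.82 and 6.24 FPKM in A375 and at 10.3, 13.7 and 4.63 in Colo800, again above scrambled with ETV1-sh1 in Colo800. POLD3 was at 5.47, 3.88 and 3.47 FPKM in A375 and at 8.01, 5.42 and 4.82 in Colo800, close together under the 2 ETV1 hairpins.

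Among the clamp, loader and fork genes the largest fall was that of UHRF1, the factor that brings the maintenance methyltransferase DNMT1 to newly copied DNA. UHRF1 was at 11.9, 3.98 and 0.868 FPKM in A375 and at 12.2, 5.46 and 1.88 in Colo800. The 2 lines started at about the same level and took the same order, and UHRF1 fell by 2.49 (SE 0.229, adjusted p = 0.00806). RFC3, a clamp loader subunit, was at 10.2, 7.23 and 2.36 FPKM in A375 and at 28.5, 29.4 and 10.4 in Colo800, and fell by 1.55 (SE 0.202, adjusted p = 0.0113). The other loader subunits had smaller differences, -0.93 for RFC2 (adjusted p = 0.0213), -0.83 for RFC4 (adjusted p = 0.0480) and -0.75 for RFC5, which did not pass (adjusted p = 0.0512). RFC4 was at 13.5, 17.9 and 8.28 FPKM in A375 and at 57.5, 45.1 and 27.9 in Colo800, above scrambled with ETV1-sh1 in A375 and below it in Colo800. RFC5 was at 16.4, 8.68 and 8.68 FPKM in A375 and at 25.6, 20.6 and 15.9 in Colo800, so the A375 level was the same with both ETV1 hairpins. RFC4 and RFC5 each have exons that overlap a gene on the opposite strand (EIF4A2 and WSB2). EIF4A2 was at 207, 192 and 438 FPKM in A375 and at 349, 279 and 491 in Colo800. WSB2 was at 46.4, 49.3 and 27.05 FPKM in A375 and at 71.4, 62.8 and 31.9 in Colo800. The part of these neighbours in the RFC4 and RFC5 values was not tested. PCNA, the sliding clamp, was at 105, 67.2 and 55.4 FPKM in A375 and at 184, 120.5 and 74.8 in Colo800, and fell by 1.1 (adjusted p = 0.0158). Every ETV1 hairpin library was below the scrambled one of its line. FEN1, the flap nuclease, and LIG1, the ligase of lagging strand pieces, fell by 1.42 (adjusted p = 0.0194) and 0.82 (adjusted p = 0.0415). FEN1 was at 39.9, 32.1 and 17.7 FPKM in A375 and at 37.4, 38.6 and 10.8 in Colo800. LIG1 was at 9.02, 7.93 and 4.32 FPKM in A375 and at 7.93, 9.54 and 4.38 in Colo800. Both were below scrambled with ETV1-sh1 in A375 and above it in Colo800, and lowest with ETV1-sh2 in each line. RPA2, which coats single-stranded DNA, was at 58.4, 49.7 and 46.6 FPKM in A375 and at 74.85, 66.2 and 55.6 in Colo800, with 79.8% and 74.3% of scrambled left with ETV1-sh2 (log2 difference -0.37, adjusted p = 0.144).

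Set 1 library against 1 within a line, which allows no test, 19 of the 38 genes were at least 2-fold lower on the log2(FPKM + 1) scale with ETV1-sh2 in A375 (8.29% of all tested genes) and 27 in Colo800 (6.38%). With ETV1-sh1 the numbers were 6 in A375 (3.89%) and 5 in Colo800 (3.96%), and no gene of the 38 was at least 2-fold higher in any of the 4. The medians of the 38 differences with ETV1-sh1 were -0.37 (A375) and -0.28 (Colo800), and with ETV1-sh2 -0.97 and -1.28. In percent of scrambled, the median over the 4 nucleotide supply genes was 53.7% in A375 and 57.5% in Colo800 with ETV1-sh1, and 6.86% and 34.2% with ETV1-sh2. The median over the 8 polymerase and primase genes was 86.5% in A375 and 85.7% in Colo800 with ETV1-sh1, and 52.6% and 44.2% with ETV1-sh2. Altogether 24 of the 38 were below scrambled in all 4 hairpin libraries, as were 16.8% of all tested genes. The 2 genes above scrambled with ETV1-sh2 in either line were GINS3 and CCNE2, and in each case that line was A375.

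With ETV1-sh1 the differences were smaller and none of the 38 passed, against 1.51% of all tested genes that fell and 0.773% that rose (limma). The fitted difference was negative for 28 of 38 and for 5547 of the 11129 tested genes, with a median of -0.30 against 0.00 over all tested genes. Of the 38, 11 had an unadjusted p under 0.05, all of them lower, against 2095 of the 11129, 1113 of them lower. The smallest adjusted p values were 0.0626 for UHRF1 (log2 difference -1.20), 0.0729 for CCNE2 (-1.83), 0.0858 for TYMS (-0.89), 0.0877 for GINS4 (-1.10) and 0.0973 for MCM10 (-1.03). RRM2 had a difference of -1.58 with an adjusted p of 0.169. At the other end were GINS3 (0.45, adjusted p = 0.305), POLA2 (0.24), CCNE1 (0.21), GINS1 (0.13) and PRIM2 (0.09), all above scrambled in both lines. When the ETV1-sh1 and scrambled libraries were fitted alone, MCM10, GINS4, CCNE2, UHRF1, RRM2 and TYMS passed, 6 in place of 0, and the same 6 passed when either ETV1-sh2 library was left out. The share of all tested genes that fell was then 4.39%, and 4.49% and 4.51% without the A375 or the Colo800 ETV1-sh2 library. Without either ETV1-sh1 library none of the 11129 genes passed with ETV1-sh1, and without either scrambled library at most 1 fell and 1 rose. ETV1 itself fell by 1.47 with ETV1-sh1 (adjusted p = 0.0331).

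**Figure D3:**
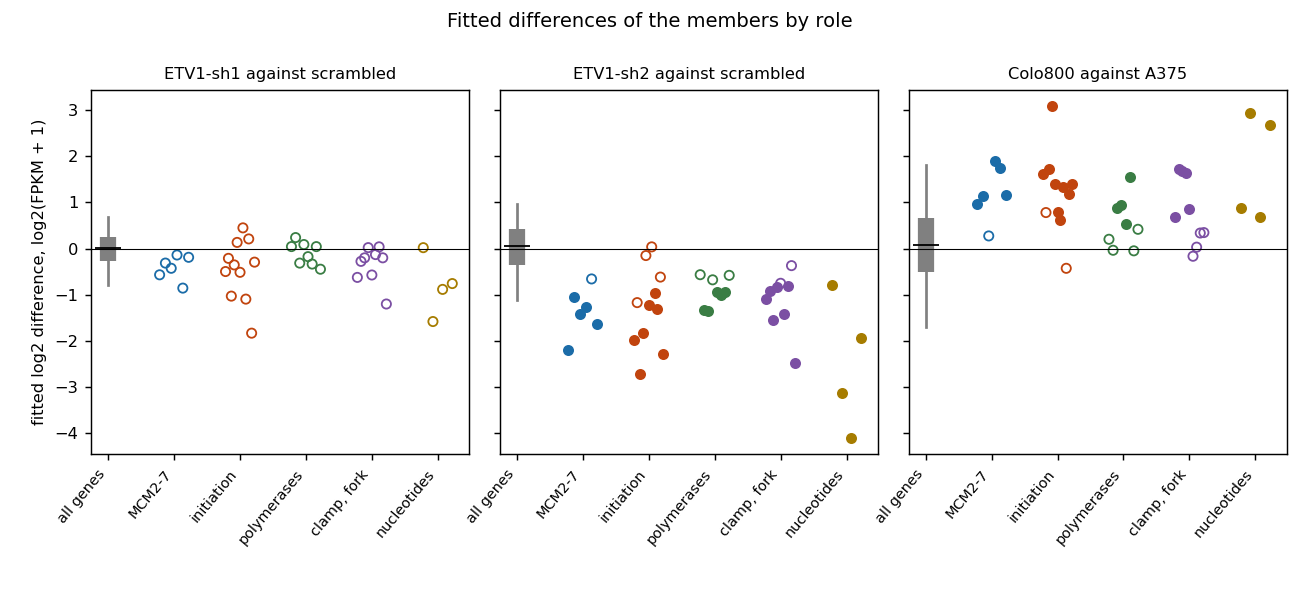
Fitted log2(FPKM + 1) differences of the 38 genes by role for 3 comparisons, filled symbols with an adjusted p under 0.05 and open symbols without; the grey box and whiskers give the middle 50% and 90% of all 11129 tested genes and the black bar their median. With ETV1-sh2 28 filled symbols lie below 0, where 9% of all tested genes fell. With ETV1-sh1 there are none, where 1.51% of all tested genes fell and 0.773% rose. In Colo800 against A375 27 lie above 0, where 31.8% of all tested genes were higher.

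The difference between the 2 ETV1 hairpins was tested in the same fit. Of the 38 genes 20 were lower with ETV1-sh2 than with ETV1-sh1 and none higher, against 6.91% and 6.82% of all tested genes. The median difference was -0.91 against 0.05 over all tested genes, and in both lines 35 of 38 were lower with ETV1-sh2, as were 32.9% of all tested genes. The 5 genes with the smallest p were TYMS (-3.22, SE 0.198, adjusted p = 0.00535), MCM2 (-1.62, SE 0.186, adjusted p = 0.00804), CCNE1 (-1.53, SE 0.200, adjusted p = 0.00964), CDC45 (-1.48, SE 0.196, adjusted p = 0.00992) and MCM5 (-1.12, SE 0.159, adjusted p = 0.0120). The positive differences were those of CCNE2 (1.22, SE 0.376, adjusted p = 0.0790), MCM6 (0.20, adjusted p = 0.723) and GINS4 (0.14, adjusted p = 0.731), none of which passed. By role 5 of 6 MCM2-7 genes, 5 of 11 initiation genes, 4 of 8 polymerase and primase genes, 4 of 9 clamp and fork genes and 2 of 4 nucleotide supply genes were lower. The number was 0 with no filter on low values, where 0% of all genes were lower. Without either of the ETV1-sh1 libraries every call was lost as well, over all tested genes too. The median difference of the 38 was then -1.01 (A375 ETV1-sh1 left out) and -0.78 (Colo800 ETV1-sh1 left out).

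The comparison that the design implies, both ETV1 hairpins against scrambled, counts the gap between the hairpins as spread. None of the 38 passed there, nor did any of the 11129 genes (0% lower and 0% higher in limma). The fitted difference was negative for 37 of 38 and for 5401 of the 11129 tested genes, with medians of -0.73 and 0.01. Of the 38, 8 had an unadjusted p under 0.05, all of them lower, against 1204 of the 11129, 567 of them lower. The smallest adjusted p of the 38 was 0.304, for GINS4. A test of whether the effect of the ETV1 hairpins differed between the lines also gave none of the 38 and 0% of all genes. This test too counts the gap between the hairpins as spread, so it cannot show that the lines responded alike. An unadjusted p under 0.05 was reached there by 66 of the 11129 genes and by none of the 38. The smallest p values there belonged to RRM2, with a difference of 1.43 (SE 1.39, Colo800 effect minus A375 effect), TK1 with 0.96 (SE 1.1), RFC5 with 0.36 (SE 0.532) and RFC4 with -0.55 (SE 0.802). Each of these differences was close to or under its SE.

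Replication genes stood higher in Colo800 than in A375. Of the 38 genes 27 were higher in Colo800 and none lower in the limma fit over the 3 hairpins, against 31.8% and 25.3% of all tested genes. The median difference was 0.91 against 0.07 over all tested genes. The 3 hairpin libraries of a line stand in for replicates here, so the p-values do not measure the spread between independent cultures. By smallest p, CDC45 came first with a log2 difference of 3.08 (SE 0.160, adjusted p = 9.0e-05), then MCM5 (1.91, SE 0.130, adjusted p = 0.000192), RFC2 (1.72, SE 0.140, adjusted p = 0.000310), RFC3 (1.68, SE 0.165, adjusted p = 0.000533) and RFC4 (1.64, SE 0.177, adjusted p = 0.000720). By size, RRM2 (2.93, adjusted p = 0.00172) and TK1 (2.68, adjusted p = 0.000747) came next after CDC45. RFC2 was at 42.9, 35.6 and 25.2 FPKM in A375 and at 158, 129 and 72.7 in Colo800, so that its lowest Colo800 library exceeded every A375 library. The 4 negative differences, none of which passed, were CCNE1 (-0.43, adjusted p = 0.0625), FEN1 (-0.17, adjusted p = 0.504), POLD1 (-0.05, adjusted p = 0.847) and POLA2 (-0.04, adjusted p = 0.877). By role 5 of 6 MCM2-7 genes, 9 of 11 initiation genes, 4 of 8 polymerase and primase genes, 5 of 9 clamp and fork genes and 4 of 4 nucleotide supply genes were higher in Colo800.

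In the scrambled libraries alone, 18 of the 38 genes were at least 2-fold higher in Colo800 (17.2% of all tested genes) and none at least 2-fold lower. The folds of FPKM were 8.63 for CDC45, 4.36 for TK1, 4.25 for RFC4, 3.96 for RRM2 and 3.95 for MCM5. CCNE1 had a fold of 0.678. The median level of the 38 was 12.4 FPKM in A375 scrambled and 27.1 in Colo800 scrambled, and 4.69 and 9.15 with ETV1-sh2. UHRF1 (fold 1.03) and MCM4 (fold 1.23) were close to equal in the 2 lines.

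**Figure D4:**
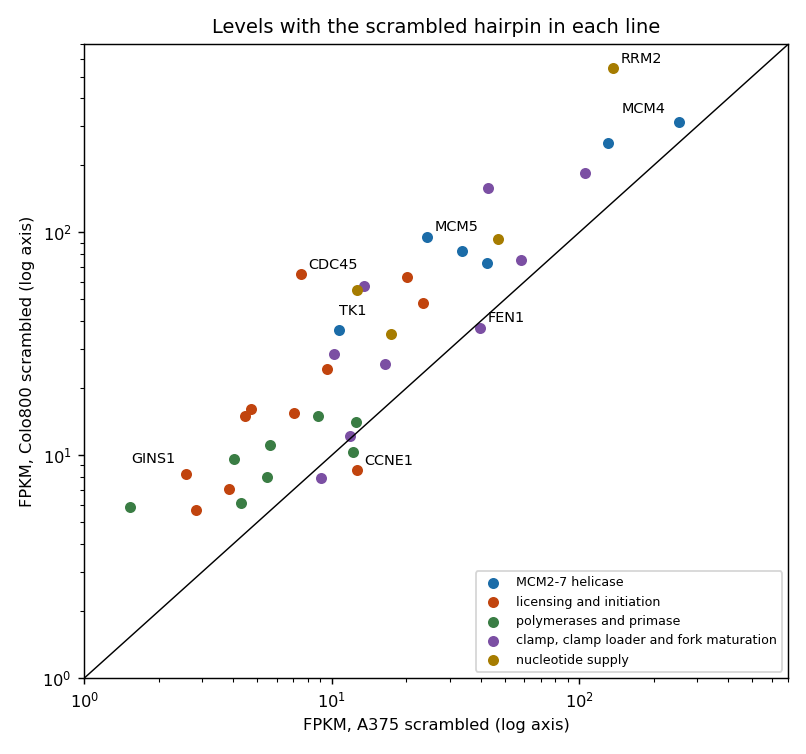
FPKM of the 38 genes in the scrambled library of A375 (horizontal) and Colo800 (vertical), both on log axes, coloured by role, with the line of equal levels. Of the 38 genes 34 lie above that line, CDC45 farthest from it, and CCNE1, FEN1, POLD1 and LIG1 lie below. Of all tested genes 47.7% were lower in Colo800 scrambled than in A375 scrambled.

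Other genes of the same pathway, taken from lists by function, were measured in the same fit. Of 11 further licensing and initiation genes tested 4 fell with ETV1-sh2 and none rose, where 9% of all tested genes fell and 7.73% rose. CDK2, the kinase that the E-type cyclins bind, was at 41.5, 60.7 and 11.04 FPKM in A375 and at 115, 148 and 25.9 in Colo800. It had the order of CCNE1, above scrambled with ETV1-sh1 and lowest with ETV1-sh2, and fell by 1.96 (adjusted p = 0.00766). MCM8, a relative of the helicase subunits, fell by 1.21 (adjusted p = 0.0153) and GMNN, the inhibitor of CDT1, by 1.03 (adjusted p = 0.0190). DONSON (0.23), RECQL4 (0.21) and MCM9 (0.03) had positive differences that did not pass. Of 22 further fork and maturation genes 12 fell and none rose, against the same 9% and 7.73%. The smallest p values were those of CLSPN (-1.66, adjusted p = 0.00870), EXO1 (-1.60, adjusted p = 0.00956) and TIMELESS (-1.38, adjusted p = 0.0130), and the largest fall was that of ASF1B, a histone chaperone named after its value was seen (-1.82, adjusted p = 0.0155). The fork protector CLSPN was at 7.79, 5.50 and 1.68 FPKM in A375 and at 22.3, 18.0 and 6.65 in Colo800. RPA3 (0.28), RFC1 (0.07) and POLE3 (0.05) were positive and did not pass.

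Nucleotide supply outside the 4 members was mixed. Of 16 further genes tested 4 fell with ETV1-sh2 and none rose, beside 9% and 7.73% of all tested genes, with a median difference of -0.23. DTYMK, the kinase after TYMS and TK1 in the thymidine route, fell by 1.40 (adjusted p = 0.0130), PAICS of purine synthesis by 1.38 (adjusted p = 0.0130) and NME1, a nucleoside diphosphate kinase, by 0.88 (adjusted p = 0.0346). SAMHD1, which degrades deoxynucleotides, TK2, the mitochondrial thymidine kinase, and RRM2B, the p53-induced counterpart of RRM2, had differences of 0.45, 0.39 and 0.39 that did not pass. RRM2B was at 110.3, 47.4 and 140.2 FPKM in A375 and at 16.5, 5.04 and 22.7 in Colo800. It was lowest with ETV1-sh1 and highest with ETV1-sh2 in both lines, fell with ETV1-sh1 (log2 difference -1.37, adjusted p = 0.0286) and was higher with ETV1-sh2 than with ETV1-sh1 (1.76, adjusted p = 0.00703).

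Of 13 E2F and pocket protein genes 2 fell with ETV1-sh2 and none rose, a count near the 9% and 7.73% of all tested genes. E2F1, an activating E2F, was at 4.84, 4.54 and 1.44 FPKM in A375 and at 23.8, 29.7 and 9.57 in Colo800, and fell by 1.24 (adjusted p = 0.0166). E2F2 fell by 1.05 (adjusted p = 0.0431), and RB1, the retinoblastoma protein that restrains E2F, had a difference of -0.62 that did not pass (adjusted p = 0.0537). TFDP2 (0.49), the repressive E2F6 (0.38) and TFDP1 (0.25) were positive and did not pass. TFDP1, the DNA-binding partner of E2F factors, was at 75.6, 33.8 and 88.2 FPKM in A375 and at 66.2, 26.6 and 80.4 in Colo800. It fell with ETV1-sh1 (-1.21, adjusted p = 0.0281) and was higher with ETV1-sh2 than with ETV1-sh1 (1.46, adjusted p = 0.00751). RRM2B and TFDP1 were the 2 genes of these 4 pathway lists that passed with ETV1-sh1, where 1.51% of all tested genes fell, and both calls are lost without either ETV1-sh1 library. Of 14 housekeeping genes 1 fell with ETV1-sh2, PPIA (-0.68, adjusted p = 0.0435), and the median of the list was -0.23, with 9% of all tested genes lower.

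The promoter words were set beside the ETV1-sh2 result of the 32 genes with an entry. Of the 19 genes with an E2F word 14 fell, and of the 13 without one 11 fell, where 9% of all tested genes fell. Of the 18 with CCAAT 14 fell and of the 14 without it 11 fell, and of the 3 with the ETS word 1 fell and of the 29 without it 24. Among the other tested genes with a promoter entry, 65 of 560 with an E2F word fell with ETV1-sh2 (11.6%) and 696 of 8119 without one (8.57%). For CCAAT those shares were 9.48% of 3807 and 8.21% of 4872, and for the ETS word 8.78% of 866 and 8.77% of 7813. These are counts with no test.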

How the data were processed

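RNA sequencing of 6 libraries was analysed from 1 table of FPKM values that the authors made with STAR 2.4, Cufflinks 2.2.1 and Cuffnorm on hg19, per the submitters' processing notes. Annotation, strand use, filters and Cuffnorm scaling were not given in the sources used here. FPKM keep no absolute depth, so no counting interval is given and the number of libraries limits the precision. Values were taken as log2(FPKM + 1) and fitted with limma 3.58.1 in R 4.3.3 (lmFit, eBayes with a variance trend) after keeping the 11129 genes whose mean FPKM reached 1, with Benjamini-Hochberg adjustment over all of them and a threshold of 0.05. One fit held 3 hairpin levels and the line, leaving 2 residual degrees of freedom, one the line and both ETV1 hairpins together (3), and one a mean per line and knockdown state (2). The scripts were tested on simulated data. Relative depth came from the commonest ratio of values between 1e-04 and 0.3 FPKM in 2 libraries. The members, the other gene lists and the markers were chosen with earlier results of these data known. Full statistics are given for the 12 smallest p with ETV1-sh2, for members whose hairpins differed in sign in both lines or with a positive ETV1-sh2 difference in either line, and for the 5 (differences between hairpins and between lines, per direction), 4 (difference between lines in effect) or 3 (other lists, per direction) smallest p. Alternatives changed the pseudocount, filter, variance trend, scaling and libraries. A comparison of protein sequences was not made.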

Additional observations from a re-analysis of the deposited data

How the results depend on the processing

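The count of members lower with ETV1-sh2 than with the scrambled hairpin, 28, stayed between 19 and 29 with a pseudocount of 0.1, a filter at a mean FPKM of at least 5, no variance trend, median scaling, quantile normalization or the 4 libraries compared alone. In these settings 4.74% to 11.3% of all tested genes fell. The count was 0 with no filter on low values (smallest adjusted p of a member 0.104), where 0 of all genes passed. With each library left out in turn it ran from 4 to 27. For ETV1-sh1 against scrambled, 0 became 6 with the 4 libraries compared alone and ran from 0 to 6 with a library left out. For ETV1-sh2 against ETV1-sh1, 20 became 0 with no filter and ran from 0 to 18 with a library left out; the 18, without Colo800 ETV1-sh2, were 17 lower and 1 higher, CCNE2 (1.91, adjusted p = 0.00367). The causes were not tested. Each such fit keeps 1 residual degree of freedom, and the lone library of a hairpin is assumed to vary like the others. The 27 members higher in Colo800, beside 31.8% of all tested genes, stayed between 21 and 28. The 21 came with no filter on low values, where 2599 of all 17468 genes were higher. Quantile normalization gave 28, with 3066 of 11129 genes higher. The counts for both hairpins and for the difference between lines stayed at 0. The difference between lines had no value without either scrambled library. With a library left out, the ETV1-sh2 minus ETV1-sh1 difference ran from -0.39 to 0.79 for MCM6 and from -0.20 to 0.47 for GINS4, and the Colo800 minus A375 difference from -0.38 to 0.085 for FEN1, from -0.29 to 0.11 for POLD1 and from -0.15 to 0.18 for POLA2, so these 5 have no settled direction. Of the alternatives for single genes 356 kept direction and call, 38 lost the call, 2 gained it and 12 turned direction. Depth is unknown, so members under 1 FPKM in a library, such as MCM10 and POLE2 with ETV1-sh2 in A375, carry the least precise values.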
